A study of Mus musculus with 36 samples.

Results

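The genes described here are the Wnt ligands, their receptors and a set of pathway components and targets. All 19 genes whose symbol is Wnt with a number were taken, together with all 10 Frizzled genes and 19 genes chosen by name (Axin2, Sp5, Lef1, Tcf7, Tcf7l1, Tcf7l2, Nkd1, Dkk1, Cdx1, Cdx2, Cdx4, Lgr5, Sfrp1, Sfrp2, Porcn, Ctnnb1, Apc, Lrp5 and Lrp6). This gave 48 of the 24284 genes in the FPKM files, and the rule uses no measured value. Earlier results of these data were known, however, when the genes were chosen. Of the 48 genes, 34 had a mean of at least 1 over the embryonic stem cell and embryoid body libraries and were tested there. The other 14 (12 ligand genes, Cdx2 and Cdx4) were below that level and are given by their values.

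RNA was sequenced in 12 mouse libraries, and every one of them came from cells without MLL3 (the gene Kmt2c), controls included. DKO cells had the genotype MLL3-/-;MLL4-/- and so had lost MLL4 (Kmt2d) too, while f/f cells had the genotype MLL3-/-;MLL4flox/flox and kept conditional MLL4 alleles. MLL4 is a histone H3 lysine 4 methyltransferase that acts mainly at enhancers. Embryoid bodies are cell aggregates that differentiate on their own, here after 4 days in suspension without LIF, the cytokine that keeps mouse embryonic stem cells (ESC) undifferentiated. The ESC were kept with LIF on irradiated fibroblast feeders, and DKO bodies, f/f bodies, DKO ESC and f/f ESC had 2 libraries each. Day-20 cells were fibroblasts that had been infected with lentiviral Oct4, Sox, Klf4 and c-MYC 20 days before, and they and the immortalised embryonic fibroblasts they came from had 1 library per genotype. No wild-type cells were among the groups. The labels do not say how many clones or cultures stand behind a group, and the p-values therefore reflect the spread among these libraries alone, which may be technical.

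For replicate 1 of each ESC and body group the files list, for every RefSeq transcript, the reads counted and their RPKM (reads scaled to transcript length and library size), and for all other libraries FPKM (the same quantity for fragments) per gene. In what follows, paired values give replicate 1 in RPKM and then replicate 2 in FPKM, both being levels per length. Depth lay between 11366199 reads (f/f bodies, replicate 2) and 38264157 reads (DKO fibroblasts). Kmt2d, read over its whole transcript, had 14.3 and 10.1 in DKO bodies against 16.4 and 15.4 in f/f bodies. In DKO ESC it had 8.89 and 10.7, against 13.5 and 18.7 in f/f ESC, and neither difference was called (limma adjusted p of 0.388 and 0.155). It ran the other way in the single libraries, with 24.8 FPKM in the day-20 library labelled DKO against 12.9 FPKM in the f/f one, and 23.5 FPKM in the fibroblast library labelled DKO against 14.4 FPKM in the f/f one. Whether the deleted part of the gene is missing cannot be read from such a value. All 8 pluripotency markers had a level of at least 1 in all 8 ESC and body libraries. At day 20 the same 8 markers summed to 10.5 FPKM in DKO and 40.02 FPKM in f/f cells. The sums rest on different genes. Nanog had 9.68 FPKM in DKO and 5.49 FPKM in f/f day-20 cells, and 7.17 FPKM in DKO and 7.26 FPKM in f/f fibroblasts. Pou5f1 (0.118 against 19.75 FPKM) and Sox2 (0.244 against 9.36 FPKM) were lower in DKO than in f/f day-20 cells. Whether their reads came from the delivered Oct4 and Sox was not tested. The 10 fibroblast markers summed to 9637 FPKM in DKO and 13220 FPKM in f/f day-20 cells. This goes against the term iPSC in the titles, and these libraries are called day-20 cells here.

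Wnt proteins are secreted ligands that carry a lipid added by the acyltransferase Porcn. Where a Wnt binds a Frizzled receptor and the coreceptor Lrp5 or Lrp6 at the cell surface, the destruction complex built around Axin and Apc stops degrading beta-catenin (Ctnnb1), which then enters the nucleus and acts with the DNA-binding factors Tcf7, Tcf7l1, Tcf7l2 and Lef1. In the mouse embryo, Wnt3 is needed to form the primitive streak, the site from which mesoderm and endoderm arise. In mouse ESC, Tcf7l1 mainly represses its targets, and Axin2 and Sp5 are used as direct readouts of beta-catenin activity in many tissues.

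The promoters of 4 genes are shown because their genes were among those with the largest differences between DKO and f/f bodies, and the sequences are from the RefSeq promoter table (build GRCm38.p6). Each line gives the 250 bases before an annotated start, and capitals mark CTTTGAT, a form of the TCF/LEF core.
Sp5 promoter, chr2:70474673-70474922, plus strand: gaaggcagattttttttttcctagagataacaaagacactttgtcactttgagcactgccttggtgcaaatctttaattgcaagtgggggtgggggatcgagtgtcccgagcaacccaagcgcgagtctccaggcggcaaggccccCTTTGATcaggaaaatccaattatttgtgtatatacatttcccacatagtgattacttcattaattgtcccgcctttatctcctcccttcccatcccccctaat
Wnt3 promoter, chr11:103773925-103774174, plus strand: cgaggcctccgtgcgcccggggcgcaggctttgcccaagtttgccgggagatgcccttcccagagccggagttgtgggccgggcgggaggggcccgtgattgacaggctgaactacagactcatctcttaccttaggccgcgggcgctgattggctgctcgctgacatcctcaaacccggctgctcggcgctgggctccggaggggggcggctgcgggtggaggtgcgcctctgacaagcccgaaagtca
Axin2 promoter, chr11:108920099-108920348, plus strand: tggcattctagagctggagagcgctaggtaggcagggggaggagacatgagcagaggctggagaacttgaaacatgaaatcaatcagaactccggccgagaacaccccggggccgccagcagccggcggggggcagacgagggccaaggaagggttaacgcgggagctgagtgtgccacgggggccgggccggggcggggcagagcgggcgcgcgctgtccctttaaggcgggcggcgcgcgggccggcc
Fzd10 promoter, chr5:128600856-128601105, plus strand: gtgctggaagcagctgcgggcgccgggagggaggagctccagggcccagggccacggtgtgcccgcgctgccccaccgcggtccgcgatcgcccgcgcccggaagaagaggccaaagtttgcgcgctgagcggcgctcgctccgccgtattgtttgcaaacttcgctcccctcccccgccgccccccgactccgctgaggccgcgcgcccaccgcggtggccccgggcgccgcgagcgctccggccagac
The search was for CTTTGAA and CTTTGAT on both strands, and the table held 33 of the 48 members with 42 starts. Of these, 4 starts held either motif (9.52%), against 7.48% of all 32851 starts in the table. The genes were Sp5, with the motif beginning 104 bases before the start, Dkk1 (117 bases), Wnt5b (71 bases) and Wnt11 (51 bases). A match is a string of letters and not a binding site, and the windows without one say only that these letters are absent there.

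The first comparison asked how loss of MLL4 went with Wnt genes in differentiating bodies. In DKO bodies 9 of the 34 tested members were lower than in f/f bodies and none was higher, with 25 not called (limma, Benjamini-Hochberg adjusted p under 0.05, as for every call below). Over all 12466 genes tested, 3.61% were called lower and 0.826% higher, 4.44% in either direction. The median log2 difference of the 34 members was -0.27, and that of all tested genes was -0.01. The 9 genes were 4 of 7 tested ligands (Wnt8a, Wnt3, Wnt7b and Wnt5a), 3 of 12 receptors (Fzd10, Fzd2 and Lrp5) and 2 of 5 feedback and other targets (Sp5 and Axin2). None of the 4 secretion and antagonist genes, the 2 genes for beta-catenin and Apc or the 4 TCF/LEF genes was called. Wnt8a, Wnt3, Wnt5b and Wnt9a passed the filter on low values only through f/f bodies, the group where they were high. Without these 4, 7 of 30 members and 2 of 3 ligands were called lower.

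Wnt8a encodes a canonical ligand made in the primitive streak. Its level was 0.540 and 0.391 in DKO bodies, against 17.4 and 8.17 in f/f bodies. In each replicate the f/f value stood far above the DKO value. The log2 difference, computed as in every test here on log2(value + 1), was -3.15 ± 0.28 (SE; limma adjusted p = 0.00886, n = 2 libraries a group). Wnt3 showed the same order, with 0.291 and 0.811 in DKO bodies and 6.23 and 7.26 in f/f bodies. It was lower by a log2 difference of -2.34 ± 0.37 (SE; limma adjusted p = 0.0256). In bulk RNA, fewer cells of a type and less RNA per cell cannot be told apart.

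Wnt7b and Wnt5a were the other ligands called. Wnt7b, better known from epithelial and neural tissue, had 0.602 and 0.269 in DKO bodies against 3.77 and 1.44 in f/f bodies. Its log2 difference of -1.26 ± 0.25 had a limma adjusted p of 0.0496, next to the threshold. Wnt5a, a ligand that often signals without beta-catenin, had 0.415 and 0.713 in DKO bodies and 1.47 and 4.15 in f/f bodies, with a log2 difference of -1.19 ± 0.23 (SE; limma adjusted p = 0.0474). Both genes were lower in DKO bodies in each replicate. Over 16 other settings of the analysis, single libraries left out included, Wnt7b was called in 4 and Wnt5a in 5.

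Wnt4, Wnt9a and Wnt5b were not called. Wnt4 had 0.158 and 4.59 in DKO bodies and 2.36 and 7.85 in f/f bodies, so that in each genotype replicate 2 was well above replicate 1. Its log2 difference was -1.10 ± 0.25 (SE; limma adjusted p = 0.0707). The values for Wnt9a (-0.61 ± 0.26) and Wnt5b (-0.59 ± 0.20) were smaller, with limma adjusted p of 0.251 and 0.165.

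Among the receptors, Fzd10 and Fzd2 had the largest differences. Fzd10 stood at 1.82 and 2.63 in DKO bodies, against 11.9 and 8.30 in f/f bodies. Fzd2, with a broad role in canonical and other Wnt signalling, stood at 9.41 and 12.4 in DKO bodies and at 30.9 and 28.9 in f/f bodies. Both genes were lower in DKO bodies in each replicate. The log2 differences were -1.77 ± 0.32 for Fzd10 (SE; limma adjusted p = 0.0374) and -1.39 ± 0.21 for Fzd2 (SE; limma adjusted p = 0.0248). The coreceptor gene Lrp5 had 13.2 and 22.0 in DKO bodies against 25.8 and 38.1 in f/f bodies, a smaller log2 difference of -0.84 ± 0.13 (SE; limma adjusted p = 0.0254). Its partner Lrp6 had 14.0 and 13.2 in DKO bodies and 13.7 and 13.0 in f/f bodies, with a log2 difference of 0.03 ± 0.12. The other 8 Frizzled genes had log2 differences between -0.33 (Fzd7) and 0.46 (Fzd5) and were not called. Fzd7 was the most abundant Frizzled gene in bodies of both genotypes, at 45.3 and 31.5 in DKO bodies and 46.6 and 49.1 in f/f bodies, so the receptor with the highest level per length was not among those called.

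The feedback genes Sp5 and Axin2 were the targets that fell. Sp5, a zinc finger repressor, had 0.391 and 0.956 in DKO bodies against 35.0 and 17.2 in f/f bodies. This was the largest difference among the 34 members, at -3.96 ± 0.42 on the log2 scale (SE; limma adjusted p = 0.0117). Axin2, a scaffold of the destruction complex that beta-catenin itself induces, had 2.83 and 1.87 in DKO bodies against 12.8 and 8.47 in f/f bodies. Its log2 difference was -1.79 ± 0.20 (SE; limma adjusted p = 0.0126), and both genes were lower in DKO bodies in each replicate. Nkd1, an inhibitor of Dishevelled, was not called. It had 2.27 and 1.92 in DKO bodies and 2.09 and 3.18 in f/f bodies, and its log2 difference was -0.22 ± 0.22.

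Lgr5, a receptor for R-spondins and a stem cell marker, read 0.0734 RPKM in replicate 1 and 4.998 FPKM in replicate 2 of DKO bodies, and 0.569 RPKM and 4.76 FPKM in f/f bodies. Over all libraries it lay between 0.0734 and 0.569 in the RPKM files and between 4.74 and 7.89 in the FPKM files, so the ranges of the 2 kinds of file did not overlap. Wnt4 (0.158 to 2.36 RPKM, 4.59 to 8.68 FPKM) was split in the same way. The caudal homeobox gene Cdx1 had 0.988 and 1.104 in DKO bodies against 1.19 and 0.352 in f/f bodies and was not called. Cdx2, below the filter, had 0.282 and 0.277 in DKO bodies against 1.47 and 2.63 in f/f bodies. Without the filter on low values its log2 difference was -1.23 ± 0.34 (limma adjusted p = 0.151).

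Beta-catenin, Apc and the TCF/LEF genes gave no call. Ctnnb1 was the most abundant member in every library of bodies, with 229.0 and 240.8 in DKO bodies against 268.4 and 285.1 in f/f bodies. Its log2 difference was -0.24 ± 0.11 (SE; limma adjusted p = 0.288). Apc, the scaffold that lets beta-catenin be degraded, had 17.8 and 12.3 in DKO bodies against 20.1 and 12.6 in f/f bodies, a log2 difference of -0.10 ± 0.14. Of the TCF/LEF genes, Tcf7 had 39.7 and 34.2 in DKO bodies against 68.9 and 47.0 in f/f bodies, with a log2 difference of -0.61 ± 0.16 that missed the threshold (limma adjusted p = 0.0904). Lef1 pointed the other way at 26.0 and 11.4 in DKO bodies against 16.3 and 9.12 in f/f bodies (0.47 ± 0.18, limma adjusted p = 0.203).

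The secreted antagonists gave no call. Dkk1, which blocks Lrp5 and Lrp6 and is a beta-catenin target itself, had 0.155 and 1.89 in DKO bodies against 1.96 and 3.54 in f/f bodies. Its log2 difference was -1.01 ± 0.22 (SE; limma adjusted p = 0.0636). Sfrp1, a decoy receptor that binds Wnt proteins, had 16.6 and 17.9 in DKO bodies against 12.1 and 12.3 in f/f bodies, and its difference was 0.47 ± 0.12 (limma adjusted p = 0.0887). In each replicate Sfrp1 had the greater value in DKO bodies, but the test did not call it.

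**Figure D1:**
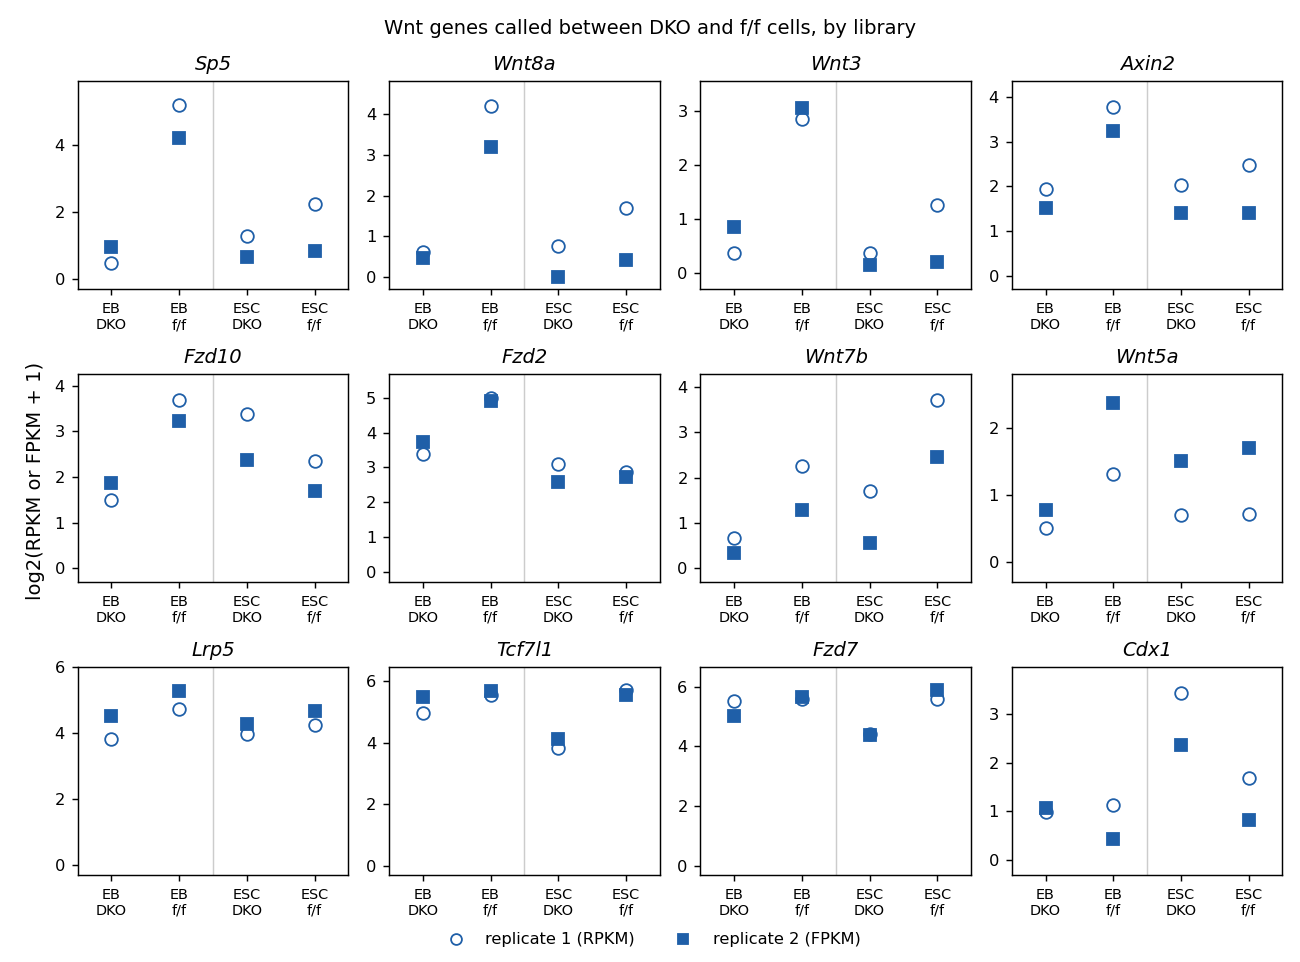
Levels of the 12 Wnt genes called between DKO and f/f cells in embryoid bodies (EB) or ESC. Each panel is 1 gene with its own vertical axis, log2(RPKM + 1) for replicate 1 (open circles) and log2(FPKM + 1) for replicate 2 (filled squares), without means or error bars. In the first 9 panels, Sp5 to Lrp5, the DKO body value lies below the f/f body value of the same replicate, and in the last 3 the DKO and f/f ESC values of each replicate are apart.

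Without either library of f/f bodies no member was called, and in these fits the lone library left in its group is assumed to vary like the other groups. The count was 2 without replicate 1 of DKO bodies (9 without replicate 2) and 4 without either f/f ESC library. Leaving out either DKO ESC library gave 7. No member was called in any of the comparisons over bodies and ESC when the replicate was left out of the fit as a block, and 4 were called in bodies without the filter on low values. The edgeR quasi-likelihood test on reads called 7 members lower, and DESeq2 called 11 lower and Sfrp1 higher. Limma after quantile scaling called 7 lower and Sfrp1 higher. Over all genes, edgeR called 475 and DESeq2 1271.

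Markers of other cell types moved with these genes. The 8 markers of primitive streak and mesoderm summed to 9.05 and 9.498 in DKO bodies against 133.8 and 159.3 in f/f bodies. Of the 5 tested, 4 were called lower in DKO bodies. The 6 endoderm markers summed to 2.57 and 1.09 in DKO bodies against 15.6 and 16.5 in f/f bodies, with 3 of 3 tested called lower. The 3 tested (Foxa2, Gata4 and Gata6) passed the filter on low values only through f/f bodies, the group where they were high. So did the streak markers Mixl1, Hand1 and Lhx1. The 6 epithelial markers summed to 142.2 and 198.9 in DKO bodies against 508.5 and 531.6 in f/f bodies, with 4 of 6 called lower. In DKO bodies none of the 8 streak markers was at 0, and 3 and 4 of them reached a level of at least 1. The endoderm marker Ttr was at 0 in both DKO libraries and in replicate 1 of f/f bodies, and Afp was at 0 in both f/f libraries. The 6 trophoblast markers summed to 38.9 and 78.6 in DKO bodies against 238.0 and 522.5 in f/f bodies, with 0 of 3 tested called. The 6 neuroectoderm markers summed to 35.3 and 46.9 in DKO bodies against 83.1 and 69.2 in f/f bodies, with 1 of 4 called higher and 1 lower. Nes was lower, at 2.24 and 6.33 in DKO bodies against 50.2 and 50.7 in f/f bodies. Sox1 was higher, at 3.52 and 8.43 in DKO bodies against 0.571 and 0.480 in f/f bodies, and passed the filter only through DKO bodies. The summed level therefore does not describe each of the 6. The part of all these markers in the differences of the Wnt genes was not tested.

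The wider pathway was read from lists of genes that are not members. Of 19 tested target genes of beta-catenin, 7 were lower in DKO bodies and none was higher, with a median log2 difference of -1.70 for the list against -0.01 for all genes. Tbxt, Fgf8 and Mixl1 were among them, and Tbxt and Mixl1 are also among the streak markers. Mixl1, Msx1 and Evx1 among the genes called, and Msx2 and Tnfrsf19 among the others, passed the filter on low values only through f/f bodies. Tbxt, the T-box factor of the streak, had 1.08 and 1.05 in DKO bodies against 69.5 and 45.1 in f/f bodies, a log2 difference of -4.79 ± 0.57 (SE; limma adjusted p = 0.0135). Of 5 tested genes for secretion and agonists, Wls, which carries Wnt proteins to the surface, and Lgr4, a receptor for R-spondins, were lower. Wls had 9.80 and 13.9 in DKO bodies against 15.8 and 30.5 in f/f bodies (-0.86 ± 0.16, limma adjusted p = 0.0434). Lgr4 had 13.7 and 14.2 in DKO bodies against 26.3 and 20.9 in f/f bodies (-0.71 ± 0.13, limma adjusted p = 0.0375).

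Among 18 tested genes listed as nuclear partners of beta-catenin, Bcl9l and Ctnnd1 were lower in DKO bodies, Bcl9l by a log2 difference of -1.44 ± 0.24 (SE; limma adjusted p = 0.0314). Ctnnd1 encodes a catenin that binds cadherins at cell junctions, and its place in this list is a loose one. Among 17 genes of planar polarity and other non-canonical signalling, only the pseudokinase gene Ptk7 was called. It had 29.4 and 40.3 in DKO bodies against 65.7 and 88.8 in f/f bodies (-1.13 ± 0.11, limma adjusted p = 0.0091). None of 20 genes of the destruction complex and Dishevelled and none of 14 further antagonists was called. The median log2 differences of these lists were -0.03 and -0.24.

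The same question was put to undifferentiated ESC. There 1 member was higher in DKO cells (Cdx1) and 3 were lower (Wnt7b, Tcf7l1 and Fzd7), with 30 not called. Over all tested genes 4.24% were called, 1.57% higher and 2.67% lower, and the median log2 difference was 0.07 for the members and 0.02 for all genes. Wnt7b had 2.24 and 0.463 in DKO ESC against 12.1 and 4.45 in f/f ESC, lower in DKO ESC in each replicate. Its log2 difference was -1.96 ± 0.25 (SE; limma adjusted p = 0.0172), so Wnt7b was called lower at both stages.

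Tcf7l1 had 13.2 and 16.5 in DKO ESC against 51.0 and 45.4 in f/f ESC. In each replicate the DKO value was far below the f/f value, and the log2 difference was -1.64 ± 0.17 (SE; limma adjusted p = 0.0116). Fzd7, a receptor that is abundant in stem cells, had 20.2 and 19.9 in DKO ESC against 47.3 and 57.7 in f/f ESC, a log2 difference of -1.34 ± 0.19 (SE; limma adjusted p = 0.0218). Cdx1 was the member that rose, with 9.75 and 4.17 in DKO ESC against 2.23 and 0.768 in f/f ESC and a log2 difference of 1.64 ± 0.29 (SE; limma adjusted p = 0.0378). Of these 4 calls, Cdx1 was the least stable, since it stayed called in 6 of 16 other settings, against 10 for Fzd7 and 11 for Tcf7l1 and Wnt7b.

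Genes with the largest differences in bodies were low in ESC of both genotypes. Sp5 had 1.45 and 0.576 in DKO ESC against 3.65 and 0.796 in f/f ESC, and Wnt3 had 0.293 and 0.104 in DKO ESC against 1.39 and 0.149 in f/f ESC. Wnt8a had 0.700 and a listed 0 in DKO ESC against 2.22 and 0.336 in f/f ESC. None of the 3 was called. Axin2 had 3.10 and 1.67 in DKO ESC and 4.57 and 1.63 in f/f ESC, so the direction differed between replicates.

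Receptor and TCF/LEF genes other than Fzd7 and Tcf7l1 were not called in ESC. Fzd2 had 7.62 and 4.99 in DKO ESC and 6.32 and 5.57 in f/f ESC, and Lrp5 had 14.8 and 18.4 in DKO ESC and 18.1 and 24.3 in f/f ESC. Tcf7 had 31.8 and 17.5 in DKO ESC and 34.7 and 26.1 in f/f ESC. Fzd2 differed in direction between the replicates, whereas Lrp5 and Tcf7 had the smaller value in DKO ESC in each replicate but were not called (limma adjusted p of 0.214 and 0.277). In level per length, Fzd5 led the Frizzled genes in DKO ESC (38.0 and 32.4, against 20.2 and 19.9 for Fzd7), while Fzd7 led in f/f ESC (47.3 and 57.7, against 24.2 and 23.3 for Fzd5). Wnt5a had 0.616 and 1.84 in DKO ESC and 0.635 and 2.24 in f/f ESC, and Wnt5b had 0.726 and 0.543 in DKO ESC and 0.389 and 0.192 in f/f ESC. Fzd10 had 9.42 and 4.14 in DKO ESC against 4.13 and 2.23 in f/f ESC, and its log2 difference of 0.85 ± 0.32 was not called (limma adjusted p = 0.19), whereas the gene fell in DKO bodies.

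No member was called in ESC without any 1 of the 4 ESC libraries, and 3 were called without either f/f body library. Outside the members, Lgr4 was the 1 of 5 tested genes for secretion and agonists that was lower in DKO ESC. It had 13.0 and 12.5 in DKO ESC against 23.1 and 22.5 in f/f ESC, close to its values in bodies. Epithelial markers summed to 191.9 and 129.1 in DKO ESC against 338.0 and 314.9 in f/f ESC, with 2 of 6 called lower and none at 0. Trophoblast markers summed to 42.1 and 30.7 in DKO ESC against 107.3 and 72.4 in f/f ESC, with 1 of 3 tested called lower. No marker of the other lists was called. Streak markers summed to 10.9 and 6.36 in DKO ESC against 18.4 and 2.91 in f/f ESC, so the direction differed between replicates. The part of all these markers in the differences of the Wnt genes was not tested.

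**Figure D2:**
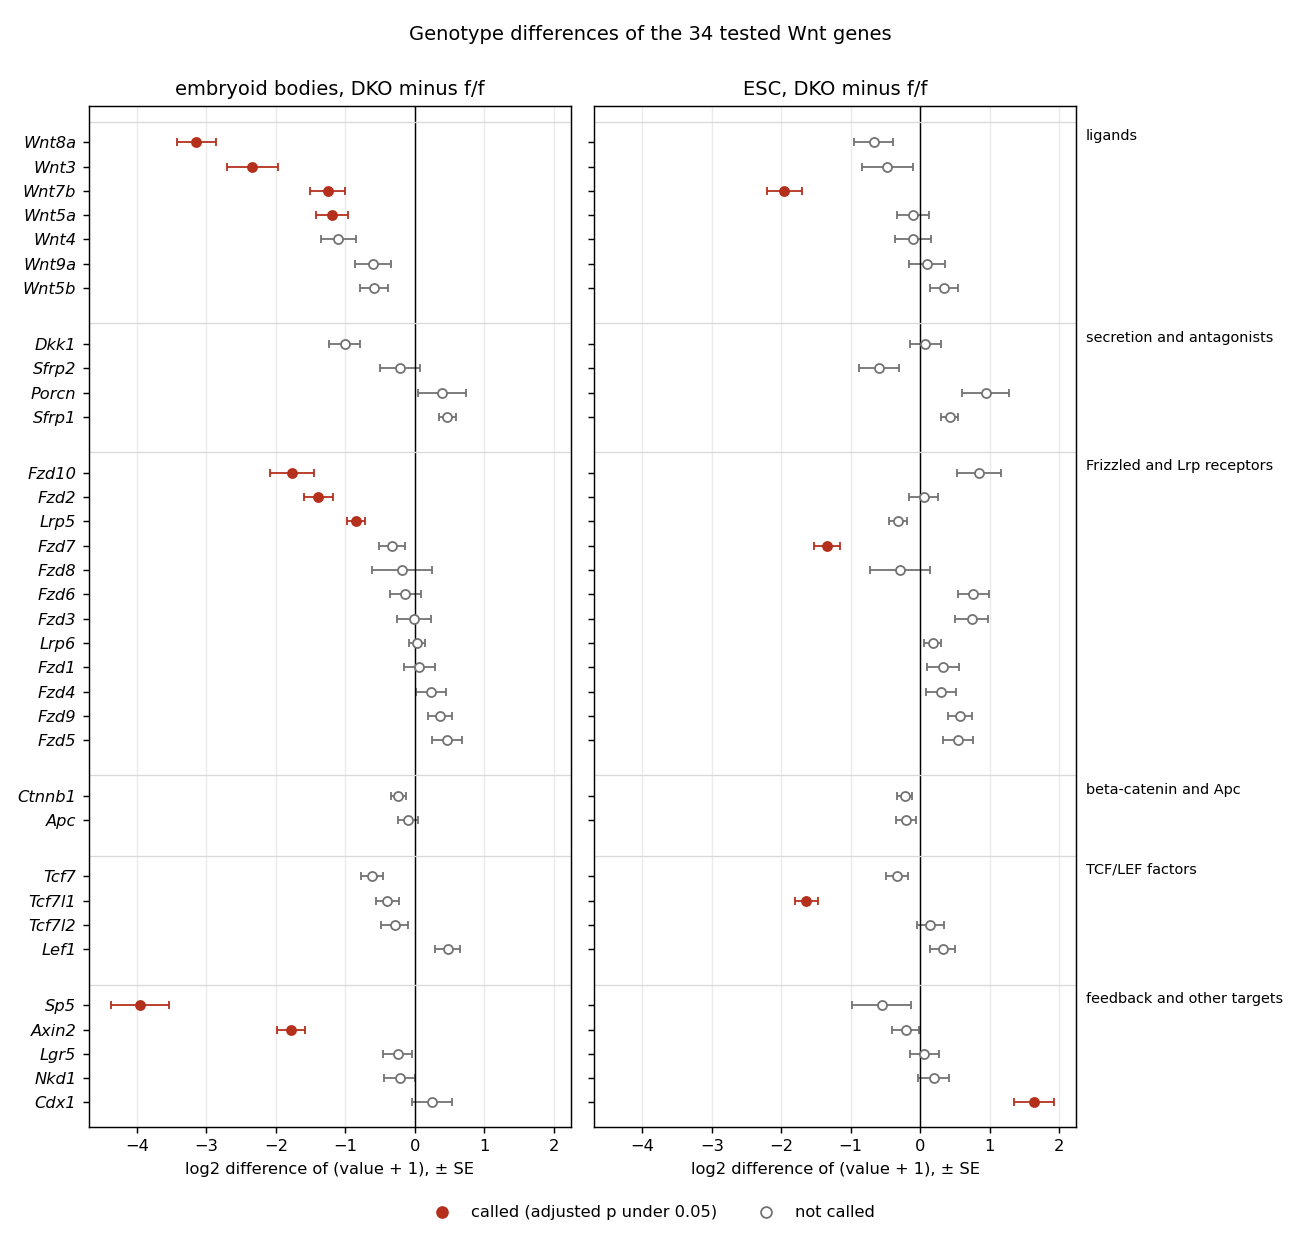
Log2 differences of DKO minus f/f for the 34 tested Wnt genes, grouped by role, in embryoid bodies (left) and ESC (right). Points are the limma estimates on log2(value + 1), bars are ± 1 SE, and filled points were called at an adjusted p under 0.05. The 9 filled points on the left are all below 0, and on the right Wnt7b, Fzd7 and Tcf7l1 lie below 0 and Cdx1 above.

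Whether the genotype effect differed between bodies and ESC was tested as the difference of both effects (the interaction). No member was called by limma, edgeR called none and DESeq2 called 7. Of the 12466 genes tested, limma called 0.00% and DESeq2 called 420, with the adjusted p of 242 genes missing in DESeq2. The largest values were -3.40 ± 0.59 for Sp5, -2.62 ± 0.45 for Fzd10 and -2.48 ± 0.40 for Wnt8a (SE; limma adjusted p of 0.119, 0.119 and 0.103). The values above 0 were led by Tcf7l1 at 1.25 ± 0.24 and Fzd7 at 1.01 ± 0.27 (limma adjusted p of 0.128 and 0.208). The 7 members that DESeq2 called were Axin2, Fzd10, Fzd2, Fzd7, Sp5, Tcf7l1 and Wnt5a.

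Differentiation was read by setting bodies against ESC within a genotype. These comparisons share libraries with those above, so their values stand side by side and do not support each other. With MLL4 alleles present, 10 of 34 members were higher in f/f bodies than in f/f ESC (Sp5, Wnt8a, Wnt3, Fzd2, Axin2, Fzd10, Wnt5b, Fzd6, Tcf7 and Lrp5), 2 were lower (Fzd5 and Wnt7b) and 22 were not called. Over all genes, 8.13% were called higher and 3.86% lower. The median log2 difference was 0.59 for the members and 0.06 for all genes.

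The steepest rise was that of Sp5, at 35.0 and 17.2 in f/f bodies against 3.65 and 0.796 in f/f ESC (log2 difference 3.15 ± 0.42, limma adjusted p = 0.016). Wnt8a, at 17.4 and 8.17 in f/f bodies against 2.22 and 0.336 in f/f ESC, rose by 2.65 ± 0.28 (limma adjusted p = 0.0135). Wnt3 rose by 2.22 ± 0.37 (limma adjusted p = 0.0211). Together with Wnt5b, at 2.24 and 1.92 in f/f bodies against 0.389 and 0.192 in f/f ESC, these were the 3 of 7 ligands called higher. All 3 passed the filter on low values only through f/f bodies, and without such genes 0 of 3 ligands and 7 of 30 members were called higher. Wnt7b was the ligand that fell, at 3.77 and 1.44 in f/f bodies against 12.1 and 4.45 in f/f ESC (-1.31 ± 0.25, limma adjusted p = 0.028).

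The largest receptor differences in f/f cells ran in opposite directions. Fzd2 had 30.9 and 28.9 in f/f bodies against 6.32 and 5.57 in f/f ESC, a log2 difference of 2.15 ± 0.21 (SE; limma adjusted p = 0.0135). Fzd5 had 8.70 and 5.47 in f/f bodies against 24.2 and 23.3 in f/f ESC, a log2 difference of -1.64 ± 0.22 (SE; limma adjusted p = 0.0159). In level per length, Fzd5 was thus above Fzd2 in both f/f ESC libraries and below it in both f/f body libraries. Fzd6 had 7.37 and 4.25 in f/f bodies against 2.14 and 1.93 in f/f ESC. Fzd10 and Fzd6 rose by 1.43 ± 0.32 and 1.13 ± 0.22 (limma adjusted p of 0.039 and 0.029). Lrp5 rose by 0.56 ± 0.13 (limma adjusted p = 0.0438) and was called in 4 of 16 other settings. Fzd7 was not called (-0.13 ± 0.19).

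Tcf7 was the TCF/LEF gene that rose, at 68.9 and 47.0 in f/f bodies against 34.7 and 26.1 in f/f ESC (0.90 ± 0.16, limma adjusted p = 0.0234). Axin2 rose by 1.58 ± 0.20 (limma adjusted p = 0.0151). Tcf7l1 had 45.8 and 50.7 in f/f bodies against 51.0 and 45.4 in f/f ESC. Its log2 difference was 0.00 ± 0.17, that of Ctnnb1 was 0.24 ± 0.11, and neither was called.

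In DKO cells 2 of 34 members were called between bodies and ESC. Over all genes, 0.201% were called higher and 0.626% lower, so few genes of any kind passed. Tcf7l1 was higher, at 30.4 and 43.7 in DKO bodies against 13.2 and 16.5 in DKO ESC (log2 difference 1.25 ± 0.17, limma adjusted p = 0.0418). Fzd5 was lower, at 14.1 and 6.93 in DKO bodies against 38.0 and 32.4 in DKO ESC, by -1.72 ± 0.22 (limma adjusted p = 0.0363). The median over members was 0.15, against 0.04 for all genes.

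The genes that rose most in f/f cells were not called in DKO cells. Sp5 had a log2 difference of -0.25 ± 0.42 between DKO bodies and DKO ESC, and Axin2 one of 0.00 ± 0.20. Wnt8a had 0.17 ± 0.28 and Wnt3 had 0.36 ± 0.37. Of the other genes that rose in f/f cells, Fzd2 and Tcf7 were higher in DKO bodies in each replicate but not called. Their log2 differences were 0.72 ± 0.21 and 0.62 ± 0.16 (limma adjusted p of 0.156 and 0.124). Fzd10 pointed down, at -1.19 ± 0.32 (limma adjusted p = 0.131). Lrp5, Fzd6 and Wnt5b had 0.04, 0.23 and 0.33 and were not called. Cdx1 pointed down, at 0.988 and 1.104 in DKO bodies against 9.75 and 4.17 in DKO ESC (-1.87 ± 0.29), with a limma adjusted p of 0.0521.

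**Figure D3:**
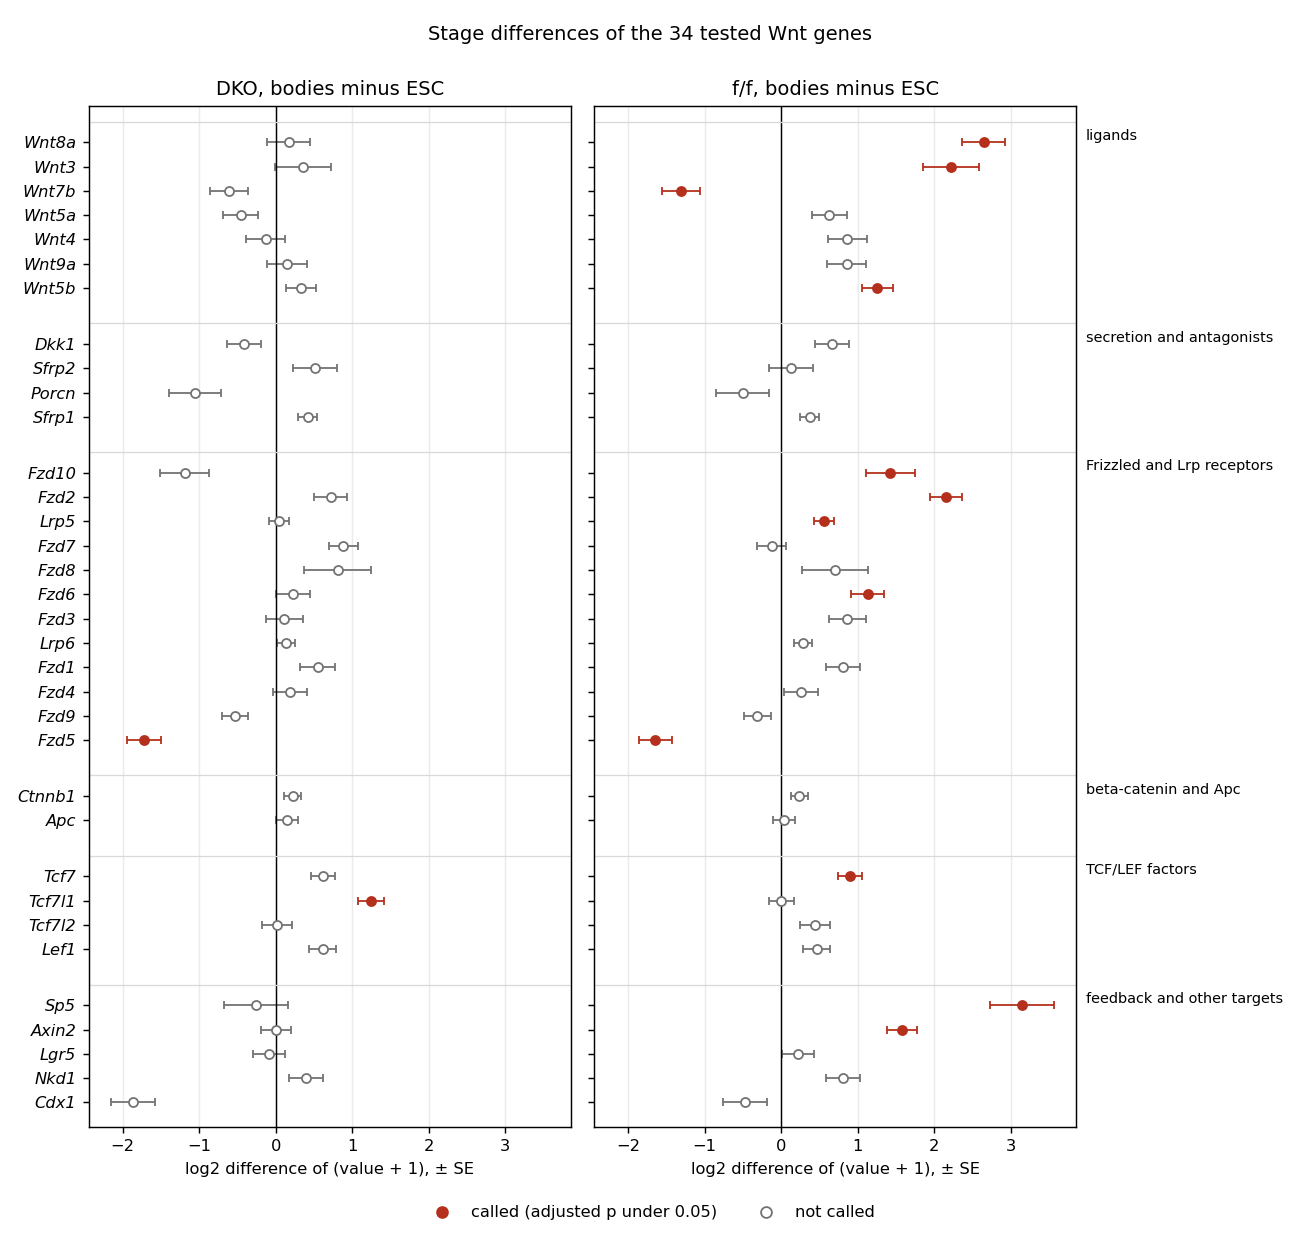
Log2 differences of bodies minus ESC for the 34 tested Wnt genes, grouped by role, in DKO cells (left) and f/f cells (right). Points are the limma estimates on log2(value + 1), bars are ± 1 SE, and filled points were called at an adjusted p under 0.05. On the right 10 filled points lie above 0 and 2 below, and on the left the filled points are Tcf7l1 above 0 and Fzd5 below.

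The 12 calls in f/f cells fell to 0 without any 1 of the f/f body or f/f ESC libraries, and were 11 to 14 without a DKO library. The 2 calls in DKO cells remained 2 in number without replicate 1 of DKO bodies and were 0 without any other library of the 8. Fibroblast markers, which feeders also express, summed to 27.1 and 70.3 in f/f bodies against 38.1 and 277.7 in f/f ESC, and to 17.2 and 29.4 in DKO bodies against 52.1 and 239.4 in DKO ESC. Of the 9 tested, 1 was called lower in bodies in each genotype. In f/f bodies against f/f ESC, streak markers were called higher in 4 of 5 tested and summed to 133.8 and 159.3 in f/f bodies against 18.4 and 2.91 in f/f ESC, and endoderm markers were higher in 3 of 3 and summed to 15.6 and 16.5 in f/f bodies against 4.005 and 1.204 in f/f ESC. The 3 endoderm markers tested, and Mixl1, Hand1 and Lhx1 among the streak markers, passed the filter on low values only through f/f bodies. Of the trophoblast markers tested in f/f cells, 2 of 3 were higher and 1 was lower, and 2 of 6 epithelial markers were higher. Of 8 pluripotency markers 2 were lower in f/f bodies, and of 4 neuroectoderm markers 1 was higher and 1 lower. Between DKO bodies and DKO ESC, 1 pluripotency marker was lower and no streak, endoderm, neuroectoderm, trophoblast or epithelial marker was called. Their part in the stage differences was not tested.

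Outside the members, the target list moved most in f/f cells, with 9 of 19 higher in bodies and 3 lower. The largest differences were 4.11 ± 0.57 for Tbxt, 3.09 ± 0.25 for Mixl1 and 3.07 ± 0.63 for Fgf8 upward and -3.19 ± 0.55 for Esrrb, a transcription factor of undifferentiated ESC, downward (log2, SE). Of 5 genes for secretion and agonists, Wls, Rspo1 and Rspo3 were higher. Wls had 15.8 and 30.5 in f/f bodies against 4.28 and 9.73 in f/f ESC, a log2 difference of 1.61 ± 0.16 (SE; limma adjusted p = 0.0135). The extracellular antagonist genes Igfbp4 and Frzb were also higher (2 of 14), as were Dvl3 (1 of 20), Bcl9 and Ctnnd1 (2 of 18) and the polarity genes Ror1, Ptk7, Vangl2 and Rac1 (4 of 17). Of the genes called higher in these lists, Mixl1, Msx1, Evx1, Msx2, Tnfrsf19, Rspo3 and Frzb passed the filter on low values only through f/f bodies. In DKO cells the calls in these lists were Klf5 and Tdgf1, both lower in bodies.

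The 14 members below the filter had low levels in ESC and bodies, but not all were near the limit of detection. Wnt1 had at most 4 reads in any of these libraries. Wnt2b had 15 to 42 reads in them, and Cdx2 had 59 and 64 reads in f/f bodies. The highest level of the 14 was 1.47 RPKM and 2.63 FPKM in f/f bodies, both of Cdx2, and at most 0.759 in the other 6 libraries of ESC and bodies. Wnt1, Wnt8b, Wnt9b, Wnt3a and Cdx4 stayed under 0.5 in all 12 libraries. Wnt2 stayed under 1. Without the filter on low values, the 1 call among these 14 genes over the 5 contrasts was Wnt10b in f/f bodies against f/f ESC, with 15 and 14 reads in f/f bodies against 1 and 0 reads in f/f ESC (log2 difference 0.52 ± 0.09, limma adjusted p = 0.0434). Wnt10a, Wnt10b, Wnt16, Wnt2b, Wnt11, Wnt7a and Wnt6 reached at least 1 FPKM in a fibroblast or day-20 library, and come with those libraries.

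In the RefSeq annotation 4 pairs of ligand genes are neighbours, namely Wnt6 and Wnt10a, Wnt3a and Wnt9a, Wnt9b and Wnt3, and Wnt10b and Wnt1. Levels of neighbours could lie far apart. Wnt3 had 6.23 and 7.26 in f/f bodies where Wnt9b had 0.107 and 0.136, and in f/f fibroblasts Wnt10b had 7.86 FPKM where Wnt1 had 0.0146 FPKM.

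Fibroblasts and day-20 cells had 1 library per genotype, so the differences have no replicate check and no test was made. Because Kmt2d was higher in the libraries labelled DKO than in the f/f ones, each direction below is that of the library labelled DKO, and DKO stands for that label. Genes with at least 1 FPKM in either library were compared, and a member was counted where FPKM + 1 differed by 2-fold or more. A gene under 1 FPKM in 1 of the libraries was thus compared only through the other, where its level was higher. Ratios of reads per depth carry 95% exact (Clopper-Pearson) intervals, which cover counting error only.

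In day-20 cells 4 of 32 compared members were past 2-fold higher in the library labelled DKO and 12 were lower. Over all genes compared, 8.51% were past 2-fold higher and 12.2% lower, 20.7% in either direction. The median log2 ratio of FPKM + 1 was -0.49 for the members and 0.03 for all genes. The 5 largest were Sfrp1, Sfrp2, Nkd1, Fzd1 and Wnt10a.

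The decoy receptors Sfrp1 and Sfrp2 differed in opposite directions. Sfrp1 had 2.36 FPKM (242 reads) in the day-20 library labelled DKO against 52.4 FPKM (5735 reads) in f/f day-20 cells, a ratio of 0.0451 (95% interval 0.0395 to 0.0513). Sfrp2 had 106.1 FPKM in the day-20 library labelled DKO and 7.61 FPKM in f/f day-20 cells, a ratio of 13.9 (95% interval 12.6 to 15.5). Nkd1 had 4 reads in the day-20 library labelled DKO against 521 in the f/f library (0.0383 and 4.67 FPKM), a ratio of 0.0082 (95% interval 0.0022 to 0.0211).

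Fzd1 was the receptor with the highest level at day 20, at 30.9 FPKM in DKO cells against 171.0 FPKM in f/f cells (ratio 0.18, 95% interval 0.174 to 0.187). Wnt10a had 0.653 FPKM in DKO and 5.57 FPKM in f/f day-20 cells (ratio 0.117, 95% interval 0.0777 to 0.172). In all, 7 of the 10 ligands with a level of at least 1 FPKM in either library were past 2-fold lower in the day-20 library labelled DKO. They were Wnt10a, Wnt5b, Wnt2b, Wnt11, Wnt7a, Wnt16 and Wnt9a. All 7 were under 1 FPKM in that library, so they were compared only through the f/f library, where they were high. Of the other members past 2-fold lower, this also held for Nkd1. Wnt6 was higher, at 1.98 FPKM in DKO against 0.213 FPKM in f/f cells, and was compared only through the library labelled DKO. The ligand with the highest level, Wnt5a, differed little, at 24.8 FPKM in DKO and 28.6 FPKM in f/f day-20 cells. Axin2 had 1.88 FPKM in the day-20 library labelled DKO against 7.45 FPKM in f/f day-20 cells (ratio 0.252, 95% interval 0.214 to 0.296).

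In fibroblasts 1 of 28 compared members was past 2-fold higher in the library labelled DKO and 7 were lower. Over all genes, 3.97% were past 2-fold higher and 5.67% lower, 9.63% in either direction. Wnt16 had 0.926 FPKM in the fibroblast library labelled DKO against 11.8 FPKM in f/f fibroblasts (ratio 0.0785, 95% interval 0.059 to 0.103). Wnt10b had 0.493 FPKM in the fibroblast library labelled DKO against 7.86 FPKM in f/f fibroblasts (ratio 0.0627, 95% interval 0.0447 to 0.086). Both ligands, and Wnt10a, were under 1 FPKM in the fibroblast library labelled DKO and were compared only through the f/f one. The median log2 ratio of FPKM + 1 was -0.31 for the members and 0.04 for all genes.

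The other 3 of the 5 largest in fibroblasts were Sfrp1, Fzd6 and Wnt5b. Sfrp1 had 1.67 FPKM in the fibroblast library labelled DKO against 12.7 FPKM in f/f fibroblasts (ratio 0.131, 95% interval 0.115 to 0.149). Fzd6 was the member that was higher, at 29.8 FPKM in the fibroblast library labelled DKO against 5.46 FPKM in f/f fibroblasts (ratio 5.46, 95% interval 5.03 to 5.93). Wnt5b had 2.71 FPKM in the fibroblast library labelled DKO against 8.40 FPKM in f/f fibroblasts (ratio 0.322, 95% interval 0.279 to 0.372). Tcf7l1, Tcf7l2 and Wnt10a made up the remaining genes past 2-fold, all lower in the library labelled DKO. Ctnnb1 was lower by less than 2-fold, at 147.2 FPKM in the fibroblast library labelled DKO against 262.8 FPKM in f/f fibroblasts and 122.8 FPKM in the day-20 library labelled DKO against 227.7 FPKM in f/f day-20 cells.

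**Figure D4:**
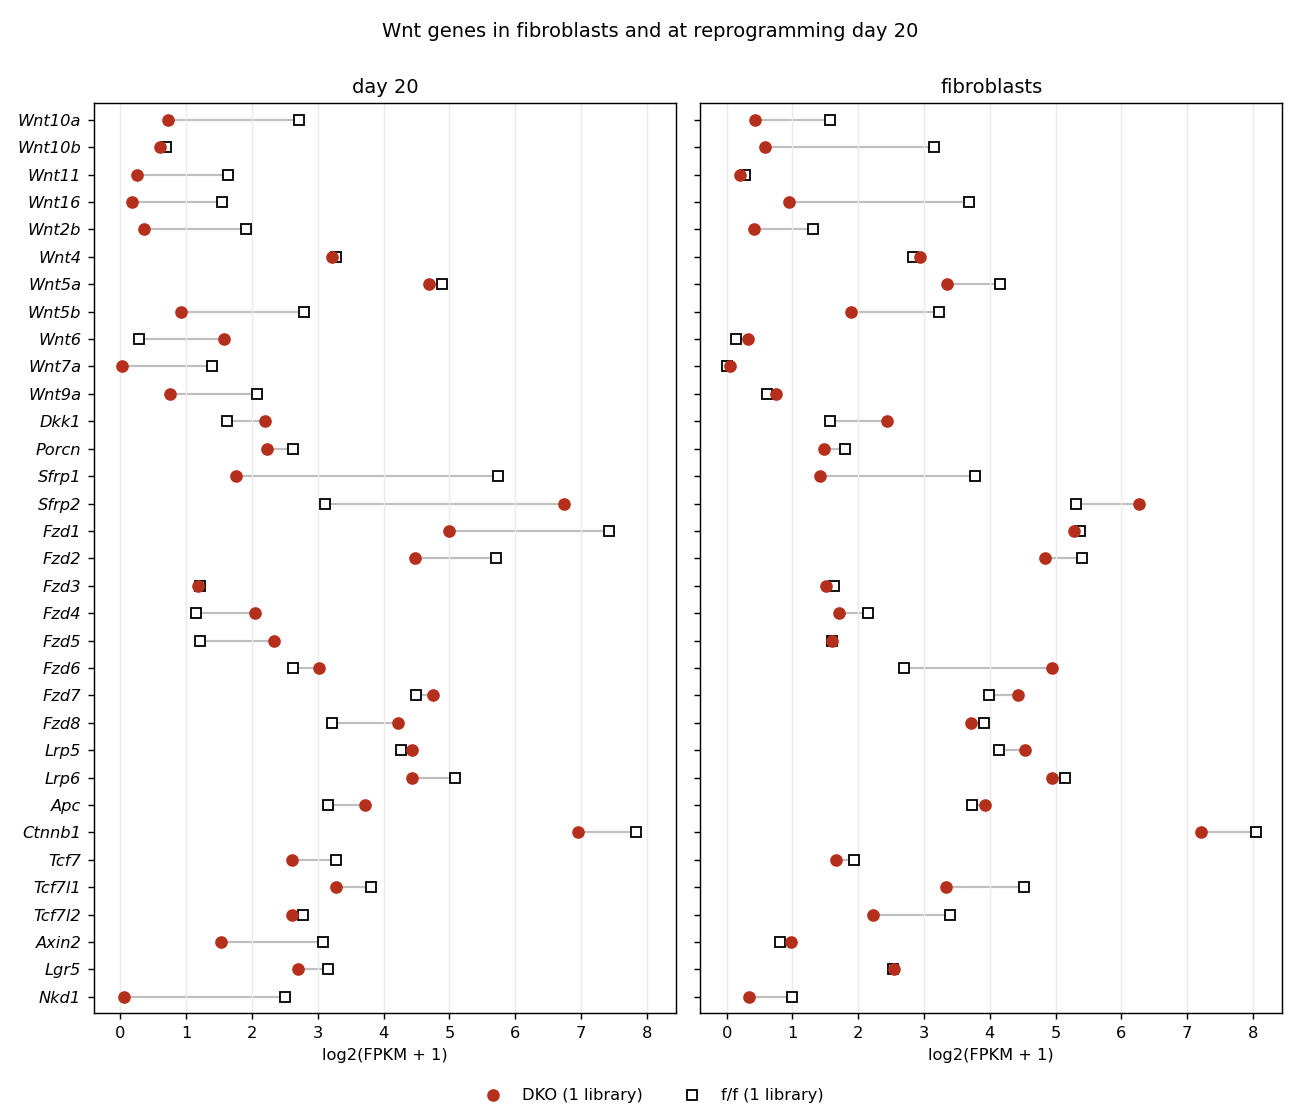
Levels of the 33 Wnt genes that reached 1 FPKM in at least 1 fibroblast or day-20 library, as log2(FPKM + 1), in day-20 cells (left) and fibroblasts (right). Filled circles are the library labelled DKO and open squares the f/f library, 1 library each, so there are no error bars. The widest gaps are those of Sfrp1 and Sfrp2 at day 20, in opposite directions, and of Wnt16 and Wnt10b in fibroblasts.

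From fibroblasts to day 20, 9 of 32 members were past 2-fold higher in f/f cells and 3 were lower, against 7.83% and 5.77% of all genes (13.6% in either direction). The 5 largest were Wnt10b, Axin2, Sfrp2, Wnt16 and Fzd1. Axin2 had 7.45 FPKM in f/f day-20 cells against 0.747 FPKM in f/f fibroblasts (ratio 9.97, 95% interval 8.02 to 12.5), and Fzd1 had 171.0 FPKM in f/f day-20 cells against 40.2 FPKM in f/f fibroblasts (ratio 4.26, 95% interval 4.13 to 4.39). The 3 lower members were Wnt10b, at 0.61 FPKM in f/f day-20 cells against 7.86 FPKM in f/f fibroblasts, Wnt16, at 1.92 FPKM in f/f day-20 cells against 11.8 FPKM in f/f fibroblasts, and Sfrp2, at 7.61 FPKM in f/f day-20 cells against 38.8 FPKM in f/f fibroblasts.

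Between the libraries labelled DKO, 2 of 25 members were past 2-fold higher at day 20 and 1 was lower, against 4.63% and 3.88% of all genes (8.51% in either direction). Wnt5a had 24.8 FPKM in the day-20 library labelled DKO against 9.20 FPKM in the fibroblast library labelled DKO (ratio 2.69, 95% interval 2.53 to 2.87), and Wnt6 had 1.98 FPKM in the day-20 library labelled DKO against 0.253 FPKM in the fibroblast library labelled DKO. Fzd6 had 7.12 FPKM in the day-20 library labelled DKO against 29.8 FPKM in the fibroblast library labelled DKO (ratio 0.239, 95% interval 0.22 to 0.259). Wnt5b and Tcf7 completed the 5 largest and stayed within 2-fold. The median log2 ratio of FPKM + 1 from fibroblasts to day 20 was 0.22 for the members and 0.01 for all genes in f/f cells, and 0.28 and -0.01 in DKO cells. The 4 comparisons of these libraries share them in pairs.

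Sp5, Wnt3, Wnt8a, Cdx1 and Fzd10, which separated the genotypes in bodies or ESC, had at most 2 reads in any fibroblast or day-20 library. Fzd2 had 21.2 FPKM in DKO and 51.3 FPKM in f/f day-20 cells, and 27.7 FPKM in DKO and 41.2 FPKM in f/f fibroblasts. Lrp5 differed less, with 20.5 FPKM in DKO and 18.3 FPKM in f/f day-20 cells, and 22.1 FPKM in DKO and 16.6 FPKM in f/f fibroblasts. Tcf7l1, which was lower in DKO ESC, had 8.71 FPKM in DKO and 13.0 FPKM in f/f day-20 cells, and 9.11 FPKM in DKO and 22.0 FPKM in f/f fibroblasts.

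Other cell types' markers differed between these libraries too. Epithelial markers summed to 0.124 FPKM in DKO against 8.92 FPKM in f/f day-20 cells, and trophoblast markers to 4.29 FPKM in DKO against 35.3 FPKM in f/f day-20 cells. The trophoblast sums rest on different genes, with Krt8 at 0.118 FPKM in DKO against 32.05 FPKM in f/f day-20 cells. Gata3 went the other way, at 4.17 FPKM in DKO against 0.124 FPKM in f/f day-20 cells. Fibroblast markers summed to 9637 FPKM in DKO and 13220 FPKM in f/f day-20 cells, and to 2770 FPKM in DKO and 3337 FPKM in f/f fibroblasts. These sums do not describe each marker. Thy1 had 1.08 FPKM in DKO against 119.7 FPKM in f/f day-20 cells, and Lum had 1.75 against 168.3 FPKM. Col1a2 (3894 against 2663 FPKM) and Col3a1 (4606 against 3851 FPKM) were the markers higher in DKO day-20 cells. In fibroblasts Col1a2, Col3a1 and Prrx1 were higher in DKO and the others lower. The part of all these markers in the differences of the Wnt genes was not tested.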

How the data were processed

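RNA was read in 12 libraries, 4 groups of 2 (DKO and f/f bodies, DKO and f/f ESC) and 4 of 1. The 24 ChIP and input samples were not analysed here. Per the file headers, replicate 1 of the ESC and body groups holds a read count and its RPKM per RefSeq transcript. The other libraries were deposited as FPKM per Entrez gene. Per the labels' protocols, Dynabeads selected the mRNA and libraries were built with Illumina's TruSeq reagents. Per the submitters' processing notes, the build was mm9 and CASAVA 1.8.2 was among the tools. The sources used here name no aligner and no use of strand, and reads of overlapping or near-identical genes cannot be separated.

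Of 29082 transcripts, 28436 matched a gene, and each of the 22456 genes found in both kinds of file was represented by its most-read transcript. Differences between groups are taken within a replicate, which is a block in the fit and stands for file kind and any batch together. RPKM and FPKM are set beside each other only to show where the file kinds differ. limma 3.58.1 with a mean-variance trend was fitted in R 4.3.3 on log2(value + 1) over 8 libraries and 12466 genes with a mean of at least 1, with Benjamini-Hochberg adjustment at 0.05. Same-numbered libraries deviated together from their group means (correlations of 0.864 to 0.954). In these 8 libraries the number goes with the file kind and the sample titles name no batch, so file kind and batch cannot be told apart. Whole reads were recovered from FPKM and gene length for edgeR 4.0.16 and DESeq2 1.42.0 as alternatives. Among low genes with a single transcript, 90.6% to 93.0% of values per library came within 0.02 of a whole read. For 23716 of 24284 genes a length near the transcript's gave whole reads in all FPKM libraries, the nearest such length was taken, and a gene's recovered reads may therefore be off by a common factor. On these reads edgeR called 475 and DESeq2 1271 genes between DKO and f/f bodies. Reads from PCR are not independent molecules, so intervals from reads cover counting error only.

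The members, gene lists and markers were chosen with earlier results of these data known. Members called in any contrast, and the 2 with the largest difference in bodies in each role, are given in full, as are the 5 largest in each single-library comparison, and pathway genes are the called ones, at most 4 per list and contrast. Further pathway genes are named only where the filter on low values bears on them. Other genes named singly (Lrp6, Nkd1, Lgr5, Wnt4, Wnt9a, Wnt6, Cdx2 and the neighbour pairs, for example) were chosen after their values were seen. Promoter sequences are RefSeq's, on GRCm38.p6, used for sequence and neighbour order only. Some pathway genes are not reported here.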

Additional observations from a re-analysis of the deposited data

How the results depend on the processing

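The comparisons are DKO against f/f ESC (4 members called), DKO against f/f bodies (9), f/f bodies against f/f ESC (12), DKO bodies against DKO ESC (2) and the interaction (0). Without the replicate block they gave 0, 0, 0, 0 and 0 calls, and the difference between replicates then stays in the residual. Without the filter on low values they gave 2, 4, 9, 0 and 0, with more genes tested. Median-of-ratios scaling gave 1 call for DKO bodies against DKO ESC. DESeq2 gave 7, 12, 17, 7 and 7. It also called more genes of any kind, with 1373, 1271, 2475, 886 and 420 of 12466, against 529, 553, 1495, 103 and 0 by limma. The other settings (pseudocount 0.1, quantile scaling, edgeR, summed transcripts) stayed within 1.5 times of each count. For DKO against f/f bodies, quantile scaling called 7 members lower and 1 higher (Sfrp1). Leaving out 1 library gave 0 to 4, 0 to 9, 0 to 14, 0 to 2 and 0 calls. The difference of Apc between DKO and f/f bodies lay between -0.25 and 0.046 with 1 library left out, the upper value without replicate 1 of f/f bodies (-0.10 with all). The interaction of Fzd5 lay between -0.40 and 0.24 (-0.08 with all) with 1 library left out and was 0.044 with edgeR and 0.018 with DESeq2. Neither was called, and the cause was not tested. Past 3-fold in place of 2-fold, the single-library comparisons held 6 members (DKO against f/f day-20 cells), 4 (DKO against f/f fibroblasts), 6 (day 20 against fibroblasts, f/f) and 1 (DKO), and a pseudocount of 0.1 gave 6 in the last. The share of all genes under these settings was not counted. Having 2 libraries a group, and 1 for fibroblasts and day 20, limits what can be called.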
